A study of Homo sapiens with 8 samples.

Results

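DNMT1, DNMT3A, DNMT3B, DNMT3L, UHRF1, TET1, TET2, TET3 and TDG encode the enzymes that write, maintain and remove methylation of cytosine in DNA, with the cofactors on which the writers depend. These 9 genes were taken by name and had 24 RefSeq transcripts among the 25558 gene symbols and 49235 transcripts measured. The RNA came from H1 cells, a human embryonic stem cell line in wide use, grown without feeder cells on Matrigel in medium with puromycin. All cells carried a hairpin RNA that doxycycline switches on. The hairpin was directed against EXOSC3 (shEXOSC3) or was a non-silencing one (shNS). Samples were taken with doxycycline and without it on days 5 and 7, and each of the 8 groups is a single library: shEXOSC3 with doxycycline, shEXOSC3 without, shNS with and shNS without, on each day. The labels do not say whether a line was a clone or a pool. With no replicates, no difference between libraries has a replicate check.

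DNMT3A and DNMT3B place methyl groups on unmethylated CpG sites, and DNMT3L, which has no catalytic activity of its own, stimulates both. DNMT1 copies the pattern to the new strand after replication and is brought to hemimethylated sites by UHRF1. TET1, TET2 and TET3 oxidise 5-methylcytosine, and TDG, a DNA glycosylase, cuts out the further oxidised bases so that repair can put back an unmodified cytosine. Human embryonic stem cells are known for high DNMT3B and for methylation outside CpG sites.

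Transcript abundance was given as FPKM, fragments scaled to transcript length and to library size, so levels can be compared between genes. A gene's level is the sum over its transcripts. EXOSC3, the target of the knockdown and a subunit of the RNA exosome, had 11.3 FPKM with doxycycline and 25.2 FPKM without it in shEXOSC3 on day 5, and 12.3 and 25.2 FPKM on day 7. In shNS the level was 27.8 FPKM with doxycycline and 27.3 FPKM without on day 5, and 27.4 and 30.3 FPKM on day 7. The 4 pluripotency markers POU5F1, NANOG, SOX2 and LIN28A were present in all 8 libraries, and their summed level was 792 to 1088 FPKM. TBXT of mesendoderm, SOX17, FOXA2 and GATA6 of endoderm, SOX1 of neuroectoderm, CDX2 of trophectoderm and COL3A1 of fibroblasts were each under 0.1 FPKM in every library. Other genes of these lists were present: KRT7 of trophectoderm had 7.70 to 9.26 FPKM, COL1A1 of fibroblasts at least 3.87 FPKM and THY1 74.1 to 197 FPKM, GATA3 up to 0.980 FPKM, PAX6 up to 0.717 FPKM and MIXL1 up to 0.646 FPKM. The tables give no read counts, so depth is known only relative to the other library of a table. By the steps between low values it was higher with doxycycline in shNS, 1.59 times the untreated library on day 5 and 1.33 times on day 7, while in shEXOSC3 it was 1.01 and 0.92 times.

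DNMT3B was the most abundant of the 9 genes in every library, with a mean of 415.5 FPKM. DNMT3A followed at 46.7 FPKM and DNMT1 at 37.5 FPKM. Their ranges over the 8 libraries overlapped, at 38.0 to 59.9 FPKM for DNMT3A and 31.7 to 43.0 FPKM for DNMT1. TET1 at 23.7 FPKM and TDG at 23.3 FPKM were close in the mean and changed places between libraries. TET3 averaged 4.66 FPKM, UHRF1 3.78 FPKM and TET2 1.82 FPKM, again with overlapping ranges. DNMT3L averaged 0.0618 FPKM and was listed at 0 in 1 library, the untreated shEXOSC3 cells of day 7. DNMT3L was the 1 gene of the 9 that stayed below a mean of 1 FPKM, so comparisons across genes use the other 8 beside 13116 genes in all.

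**Figure D1:**
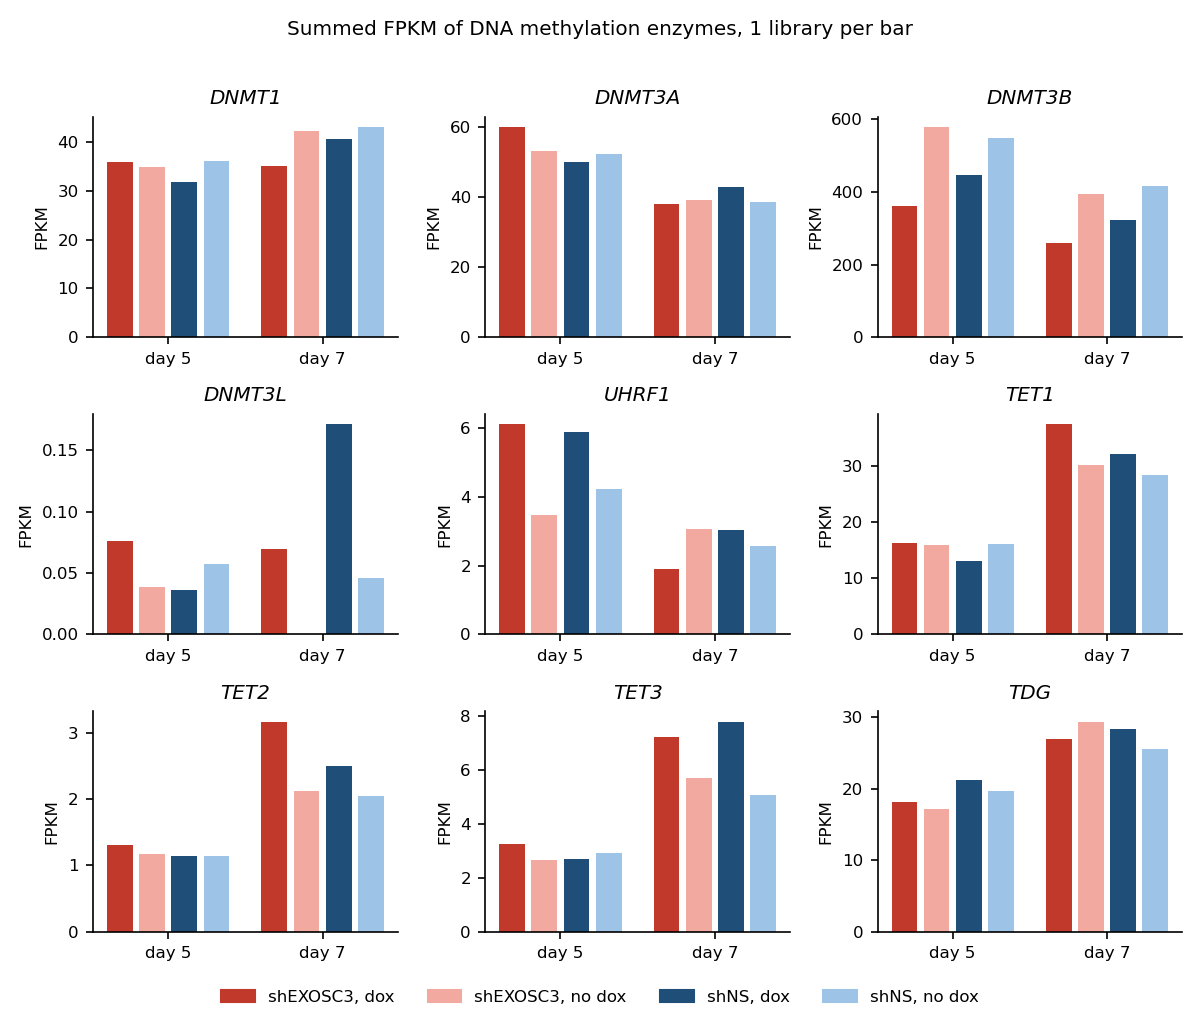
Summed FPKM of the 9 genes, 1 bar per library and 1 panel per gene, each with its own axis from 0, by hairpin, doxycycline and day. DNMT3B is the lower one with doxycycline in all 4 pairs, TET1, TET2 and TET3 are higher on day 7 than on day 5, and DNMT3L reaches at most 0.171 FPKM.

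DNMT3B (hg19, chromosome 20, 31350191 to 31397162) had the same direction with doxycycline in both lines and on both days. In shEXOSC3 the level was 362 FPKM with doxycycline and 578 FPKM without on day 5, and 258 and 395 FPKM on day 7. The shNS pair had 447 FPKM with doxycycline and 548 FPKM without on day 5, and 321 and 415 FPKM on day 7. The doxycycline library was thus the lower one in all 4 pairs, in the cells with the non-silencing hairpin as well. As a share of the untreated level this was 62.7% in shEXOSC3 and 81.5% in shNS on day 5, and 65.4% and 77.5% on day 7. The log2 ratios of doxycycline over no doxycycline, computed as log2(FPKM + 1), were -0.67 in shEXOSC3 and -0.29 in shNS on day 5, and -0.61 and -0.37 on day 7. A ratio below 0 in all 4 pairs was found for 12.4% of all genes and, among the 8 genes, for DNMT3B alone. A ratio above 0 in all 4 pairs was found for 12.8% of all genes and for 0 of the 8. Of all genes, 1.96% had a lower ratio than DNMT3B in shEXOSC3 on day 5 and 2.94% on day 7, against 6.77% and 6.33% in shNS.

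Marker lists of the stem cell state had lower sums in the same pairs, though not every gene did. The summed level of the 4 pluripotency markers was lower with doxycycline in all 4 pairs, at 792 FPKM with and 895 FPKM without in shEXOSC3 and 800 and 903 FPKM in shNS on day 5. On day 7 it was 877 FPKM with doxycycline and 1088 FPKM without in shEXOSC3, and 982 and 1056 FPKM in shNS. A list of 5 genes of the naive state, KLF17, DPPA5, DPPA3, KLF4 and TFCP2L1, summed to 3.99 FPKM with doxycycline and 11.2 FPKM without in shEXOSC3, and to 5.32 and 11.4 FPKM in shNS, on day 5. On day 7 its sum was 2.61 FPKM with and 5.55 FPKM without in shEXOSC3, and 3.05 and 6.10 FPKM in shNS. Of these 5 genes, 3 had a mean of at least 1 FPKM and KLF17 stayed under 0.1 FPKM. POU5F1, SOX2 and LIN28A, and DPPA5 and DPPA3 of the naive list, were lower with doxycycline in all 4 pairs. NANOG was higher with doxycycline in shEXOSC3 on day 5, at 19.4 FPKM with and 18.8 FPKM without. KLF4 was higher with doxycycline in shEXOSC3 on day 7, and TFCP2L1 in both lines on day 7. The part of these markers in the DNMT3B values was not tested. In bulk RNA, fewer cells of a type and less RNA per cell cannot be told apart.

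Of the 6 DNMT3B transcripts, NM_006892 held 86.2% to 96.0% of the gene's FPKM. It encodes the full-length catalytic form, of 853 residues by the coding bases of the matching GENCODE transcript. NM_175849, which encodes the form known as DNMT3B3 with 770 residues, held 3.01% to 12.4%. It lacks 3 exons of NM_006892, exon 10 (GRCh38, plus strand, chr20:32793536-32793595, 60 bases), exon 21 (chr20:32805338-32805407, 70 bases) and exon 22 (chr20:32806209-32806327, 119 bases). Exons 21 and 22 lie in the catalytic domain, and this form is known to lack methyltransferase activity. The sequences below, from GENCODE v29 transcripts, show what separates the pair: reads over these exons or across these junctions are what tells the forms apart. In the lines for NM_006892 the skipped exons are in capitals between 15 bases of their neighbours, and in those for NM_175849 the exon after the junction is in capitals.
NM_006892 exon 10: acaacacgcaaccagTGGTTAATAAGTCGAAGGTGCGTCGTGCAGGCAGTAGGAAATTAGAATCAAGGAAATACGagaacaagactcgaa
NM_175849 junction of exons 9 and 11: acaacacgcaaccagAGAACAAGACTCGAA
NM_006892 exons 21 and 22: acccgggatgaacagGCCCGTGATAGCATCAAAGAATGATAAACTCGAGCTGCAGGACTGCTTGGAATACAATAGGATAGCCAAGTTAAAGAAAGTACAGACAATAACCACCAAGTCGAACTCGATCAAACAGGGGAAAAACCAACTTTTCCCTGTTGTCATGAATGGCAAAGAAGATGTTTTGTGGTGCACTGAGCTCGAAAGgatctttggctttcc
NM_175849 junction of exons 20 and 23: acccgggatgaacagGATCTTTGGCTTTCC

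NM_006892 carried the lower DNMT3B level with doxycycline. The shEXOSC3 pair had 324 FPKM with doxycycline and 555 FPKM without on day 5, and 228 and 356 FPKM on day 7. For shNS the values were 413 FPKM with doxycycline and 509 FPKM without on day 5, and 277 and 389 FPKM on day 7. In the authors' deposited table, which tests 1 library against 1 library, the unadjusted p of NM_006892 was 0.0414 and 0.0657 in shEXOSC3 on days 5 and 7, and 0.285 and 0.0649 in shNS. NM_175849 showed no common direction. The shEXOSC3 cells had 34.6 FPKM with doxycycline and 17.4 FPKM without on day 5, and 30.9 and 37.9 FPKM on day 7. The shNS cells had 31.9 FPKM with doxycycline and 37.5 FPKM without on day 5, and 40.0 and 25.5 FPKM on day 7. Its share of DNMT3B was the higher one with doxycycline in all 4 pairs, also where its own level was lower (shNS on day 5, shEXOSC3 on day 7) and NM_006892 was lower too. The share was 9.55% with doxycycline and 3.01% without in shEXOSC3, and 7.15% and 6.84% in shNS, on day 5. On day 7 it was 12.0% with and 9.60% without in shEXOSC3, and 12.4% and 6.15% in shNS. The 4 remaining transcripts never exceeded 3.89 FPKM, and NM_175848 was listed at 0 in all 8 libraries. FPKM of transcripts that share most of their exons depend on how shared reads were divided, so the shares are less certain than the sum.

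DNMT3A (hg19, chromosome 2, 25455830 to 25565459), the other de novo enzyme, showed no common direction. In shEXOSC3 the level was 59.9 FPKM with doxycycline and 53.1 FPKM without on day 5, and 38.0 and 39.0 FPKM on day 7. In shNS the level was 50.0 FPKM with doxycycline and 52.1 FPKM without on day 5, and 42.7 and 38.5 FPKM on day 7. Its log2 ratios were 0.17 in shEXOSC3 and -0.06 in shNS on day 5, and -0.03 and 0.15 on day 7. With DNMT3B lower and DNMT3A without a common direction, the ratio of DNMT3B to DNMT3A was lower with doxycycline in all 4 pairs. It was 6.05 with doxycycline and 10.9 without in shEXOSC3 on day 5, and 6.79 and 10.1 on day 7. In shNS it was 8.94 with and 10.5 without on day 5, and 7.52 and 10.8 on day 7.

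DNMT3A has a pair of main forms with different start sites. NM_153759, the short form known as DNMT3A2 with 723 residues, begins inside the gene, and NM_022552, the long form of 912 residues, begins upstream. NM_153759 held 84.8% to 96.9% of DNMT3A FPKM. NM_022552 held 0.406% to 5.39% on day 7 and 9.18% to 13.2% on day 5. The short form is the one known to prevail in embryonic stem cells. The promoters of both starts are shown since the start used is what separates the forms. They are RefSeq sequences on GRCh38, minus strand, 250 bases before to 50 after a start, with CpG dinucleotides in capitals.
DNMT3A internal promoter, chr2:25252266-25252565: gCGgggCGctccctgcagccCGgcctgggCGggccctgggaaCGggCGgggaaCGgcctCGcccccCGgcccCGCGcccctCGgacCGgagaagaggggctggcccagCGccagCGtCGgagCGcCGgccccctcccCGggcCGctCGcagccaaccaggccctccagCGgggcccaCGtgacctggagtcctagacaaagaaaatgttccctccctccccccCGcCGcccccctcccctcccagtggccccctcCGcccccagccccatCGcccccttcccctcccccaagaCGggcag
DNMT3A upstream promoter, chr2:25341876-25342175: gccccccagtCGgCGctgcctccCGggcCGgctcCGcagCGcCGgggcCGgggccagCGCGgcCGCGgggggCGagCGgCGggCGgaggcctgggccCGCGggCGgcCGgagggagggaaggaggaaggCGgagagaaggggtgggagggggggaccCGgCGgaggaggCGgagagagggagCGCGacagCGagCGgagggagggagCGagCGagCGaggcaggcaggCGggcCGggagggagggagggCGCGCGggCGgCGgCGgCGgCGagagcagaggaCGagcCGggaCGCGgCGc
The internal window held 28 CpG at 78.3% G and C, and the upstream window 46 CpG at 83.0%. Over 35116 promoter windows of that length the medians were 14 CpG and 58.7%. At least 28 CpG were found in 26.2% of the windows and at least 46 in 2.89%. These counts describe sequence, and no methylation was measured.

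**Figure D2:**
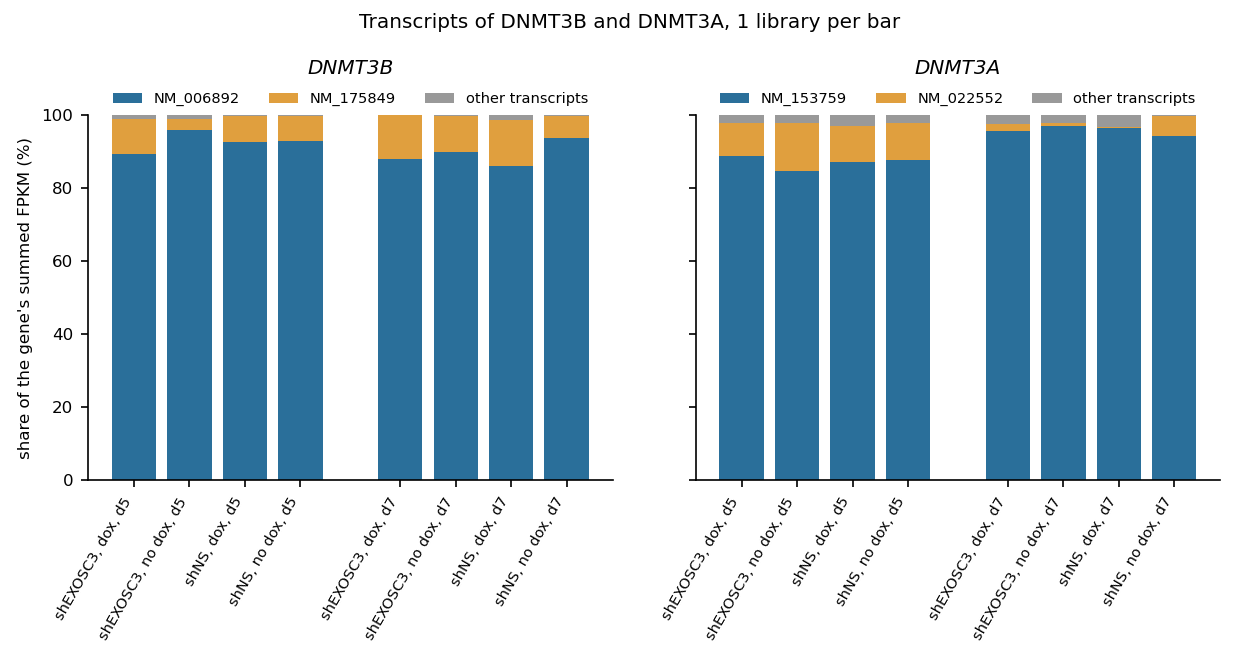
Share of each gene's summed FPKM, in percent, held by the named transcripts of DNMT3B and DNMT3A, 1 stacked bar per library. NM_006892 and NM_153759 hold most of their gene in all 8 libraries, and NM_175849 takes a larger share with doxycycline in all 4 pairs.

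DNMT3L (hg19, chromosome 21, 45666222 to 45682099) was near the lower limit of the tables. The shEXOSC3 values were 0.0764 FPKM with doxycycline and 0.0385 FPKM without on day 5, then 0.0699 and 0 FPKM on day 7. The shNS values were 0.0360 FPKM with doxycycline and 0.0572 FPKM without on day 5, then 0.171 and 0.0456 FPKM on day 7. No fold is given for values this low. An antisense gene, DNMT3L-AS1, overlaps DNMT3L, and the sources used here do not say whether counting used strand.

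Of the maintenance pair, DNMT1 (hg19, chromosome 19, 10244022 to 10305755) was lower with doxycycline in every pair but shEXOSC3 on day 5. The shEXOSC3 pair had 36.0 FPKM with doxycycline and 34.9 FPKM without on day 5, and 35.1 and 42.2 FPKM on day 7. The shNS pair had 31.7 FPKM with doxycycline and 36.1 FPKM without on day 5, and 40.5 and 43.0 FPKM on day 7. Its log2 ratios were 0.04 in shEXOSC3 and -0.18 in shNS on day 5, and -0.26 and -0.08 on day 7. NM_001379 held 73.2% to 100% of the gene. The second transcript, NM_001130823, was listed at 9.20 FPKM in untreated shEXOSC3 cells and 10.9 FPKM in shNS cells with doxycycline on day 7, and at 0 to 0.718 FPKM in the other 6 libraries. It was thus high in 1 doxycycline and 1 untreated library, and the DNMT1 sum moved far less.

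UHRF1 (hg19, chromosome 19, 4903092 to 4962165), which recruits DNMT1, varied most over the 4 ratios, with a range of 1.15 log2 units. The shEXOSC3 cells had 6.10 FPKM with doxycycline and 3.47 FPKM without on day 5, and 1.90 and 3.06 FPKM on day 7. For shNS the values were 5.87 FPKM with doxycycline and 4.23 FPKM without on day 5, and 3.03 and 2.56 FPKM on day 7. The doxycycline library was the higher one in 3 pairs and the lower one in shEXOSC3 on day 7. The log2 ratios were 0.67 in shEXOSC3 and 0.40 in shNS on day 5, and -0.49 and 0.18 on day 7. Of all genes, 97.0% had a lower ratio in shEXOSC3 on day 5 and 5.05% on day 7. NM_001048201 held 45.6% to 99.9% of the gene and NM_001290051 held 0% to 49.3%. ARRDC5 and MIR4747 overlap the UHRF1 locus. The genes with ratios most like those of UHRF1, by Euclidean distance over the 4 ratios, were APOA1 at 0.211, TSPY26P at 0.269 and WTIP at 0.280. The median over all genes was 1.02, but these genes were picked for the smallest distances, so lying below it follows from the choice. APOA1, at 0.302 to 2.30 FPKM, and TSPY26P, at 1.22 to 3.50 FPKM, were low. No shared behaviour with UHRF1 was tested.

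TET1 (hg19, chromosome 10, 70320117 to 70454239) was the main TET gene, with 75.8% to 80.7% of the summed TET FPKM. In shEXOSC3 the level was 16.2 FPKM with doxycycline and 16.0 FPKM without on day 5, and 37.5 and 30.3 FPKM on day 7. The shNS cells had 13.2 FPKM with doxycycline and 16.0 FPKM without on day 5, and 32.2 and 28.4 FPKM on day 7. The log2 ratios were 0.02 in shEXOSC3 and -0.27 in shNS on day 5, and 0.30 and 0.18 on day 7. TET1 was thus higher with doxycycline in both lines on day 7, and on day 5 the shNS pair had the lower level with doxycycline.

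TET3 (hg19, chromosome 2, 74213531 to 74335302) had 3.26 FPKM with doxycycline and 2.66 FPKM without in shEXOSC3 on day 5, and 7.22 and 5.71 FPKM on day 7. In shNS the level was 2.69 FPKM with doxycycline and 2.92 FPKM without on day 5, and 7.79 and 5.06 FPKM on day 7. Its highest log2 ratio, 0.54, was that of shNS on day 7, where shEXOSC3 had 0.29. On day 5 the ratio was 0.22 in shEXOSC3 and -0.09 in shNS. BOLA3 and FNBP1P1 are listed as overlapping TET3, which may not hold at these hg19 coordinates. TET2 (hg19, chromosome 4, 106067032 to 106274038), overlapped by the antisense gene TET2-AS1, had 1.30 FPKM with doxycycline and 1.17 FPKM without in shEXOSC3 on day 5, and 3.17 and 2.12 FPKM on day 7. The shNS pair had 1.13 FPKM with doxycycline and 1.14 FPKM without on day 5, and 2.50 and 2.05 FPKM on day 7. Its ratios were 0.08 in shEXOSC3 and -0.01 in shNS on day 5, and 0.42 and 0.20 on day 7. TET1, TET2 and TET3 all had ratios above 0 in both shEXOSC3 pairs, as did 31.7% of all genes, though TET1 was only at 0.02 on day 5. This count was not set in advance. In shNS all of them were above 0 on day 7 as well, and below 0 on day 5.

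TDG (hg19, chromosome 12, 104359593 to 104382656), which acts after the TET enzymes, had 18.1 FPKM with doxycycline and 17.1 FPKM without in shEXOSC3 on day 5, and 27.0 and 29.4 FPKM on day 7. For shNS the values were 21.2 FPKM with doxycycline and 19.6 FPKM without on day 5, and 28.4 and 25.6 FPKM on day 7. Its 4 log2 ratios lay between -0.12 and 0.15, a range of 0.27. Pseudogenes named after DNMT3A, TET1 and TDG exist (DNMT3AP1, TET1P1 and TDGP1), and reads shared with them may have been divided.

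**Figure D3:**
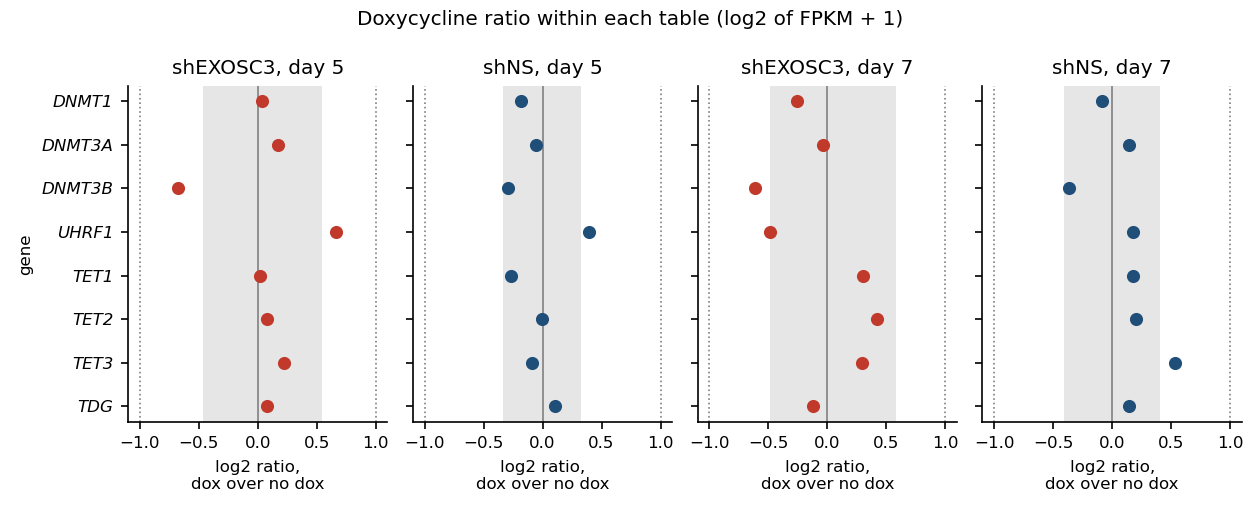
Log2 ratio of doxycycline over no doxycycline of the 8 genes, on the log2(FPKM + 1) scale, 1 point per gene and 1 panel per line and day, with grey bands from the 5th to the 95th percentile of all genes and dotted lines at a 2-fold difference. DNMT3B is below 0 in all 4 pairs, and UHRF1 has the widest range.

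By size, none of the 8 genes (0) passed a 2-fold difference between doxycycline and no doxycycline in any pair. Over all genes, 2.05% passed in shEXOSC3 and 1.32% in shNS on day 5, and 2.92% and 2.05% on day 7. To set the EXOSC3 hairpin against the non-silencing one, the ratio in shNS was subtracted from the ratio in shEXOSC3 of the same day. By this adjusted difference 0 of 8 genes passed 2-fold on day 5, on day 7 or with 1 sign on both, beside 2.43%, 3.96% and 0.435% of all genes. EXOSC3, the target of the knockdown, had ratios of -1.09 on day 5 and -0.97 on day 7 in shEXOSC3. Its adjusted differences were -1.11 and -0.84, so EXOSC3 itself passed on day 5 but not on day 7. The count of 0 thus does not show that the 8 genes were unchanged. DNMT3B had adjusted differences of -0.38 on day 5 and -0.24 on day 7, and 9.11% and 18.5% of all genes lay lower. UHRF1 had 0.27 on day 5 and -0.66 on day 7, and on day 7 3.05% of all genes lay lower. TET1 had 0.28 and 0.12, TET2 0.09 and 0.22, and TET3 0.31 and -0.24 on days 5 and 7. DNMT1 had 0.22 and -0.18 (0.61 on day 7 by NM_001379 alone), DNMT3A 0.23 and -0.18, and TDG -0.03 and -0.27. Several of these sizes depended on the processing: with doxycycline libraries compared across tables, TDG had -0.22 and -0.07, UHRF1 0.05 on day 5, TET1 0.21 on day 7 and TET3 -0.10 on day 7. TET1 and TET2 were the 2 genes above 0 on both days, as were 26% of all genes, and DNMT3B and TDG were the 2 below 0 on both days, as were 28.9%. The median of the 8 genes was 0.23 on day 5 and -0.21 on day 7, where all genes had medians of -0.00 and -0.01. With doxycycline libraries compared across tables it was 0.14 and -0.13, where all genes had -0.00 and 0.01. How often 8 genes drawn at random have such medians was not tested. All 8 values on each day, apart from UHRF1 on day 7, lay within the 5th to 95th percentile of all genes, -0.48 to 0.58 on day 5 and -0.51 to 0.64 on day 7.

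**Figure D4:**
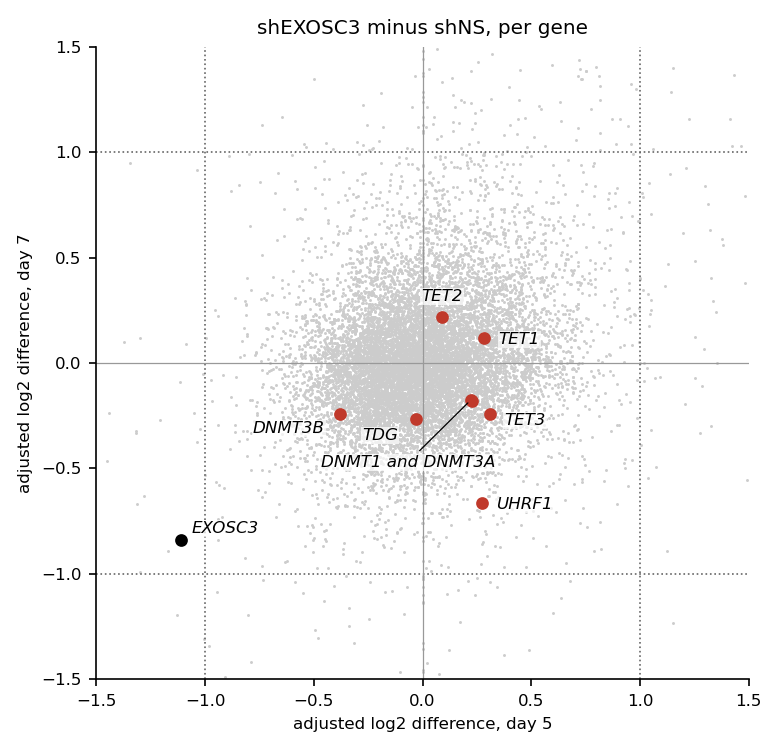
Adjusted log2 difference (shEXOSC3 minus shNS) on day 5 and day 7 for all genes in grey, the 8 genes in red and EXOSC3 in black, with dotted lines at a 2-fold difference; genes beyond 1.5 on either axis are not drawn. The 8 genes lie inside the 2-fold lines on both days.

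With the days of a line as its observations, limma gave DNMT3B a mean difference between shEXOSC3 and shNS of -0.31 (SE 0.131, on 2 days per line). Its unadjusted p was 0.0696 and its adjusted p 0.747 over all genes. TDG had -0.15 (SE 0.123), TET1 0.20 (SE 0.204), TET2 0.15 (SE 0.220) and UHRF1 -0.20 (SE 0.414). DNMT1, DNMT3A and TET3 had 0.02, 0.02 and 0.03. None of the 8 (0) was called, nor was any of 13116 genes (0%), the knocked-down EXOSC3 included. The unadjusted p of limma was below 0.05 for 0 of the 8 and for 769 genes (5.86%), and the smallest adjusted p over all genes was 0.0978. The test sets the lines against the spread between days, which are time points, so the misses do not show that the lines were alike. In the authors' deposited table, 59 tests of transcripts of the 9 genes had a valid status. Of these, 4 had an unadjusted p below 0.05, beside 5.02% of the 91763 tests of all transcripts, and 0 were marked significant, as were 0 of all, with a smallest q of 0.604.

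Single transcripts differed more than the sums. Of 12 transcripts of the 9 genes with a mean of at least 1 FPKM, 2 passed a 2-fold adjusted difference on day 5, beside 13.6% of all such transcripts, and 3 passed on day 7, beside 19%. On day 5 these were NM_175849 of DNMT3B at 1.18 and NM_001207055 of DNMT3B at -1.20. On day 7 they were NM_001130823 of DNMT1 at -6.92, NM_022552 of DNMT3A at 1.78 and NM_001207055 of DNMT3B at -2.28. NM_001207055 was the 1 transcript past the threshold on both days, as were 2.71% of all, and it was listed at 0 FPKM in 4 libraries. All of these belong to genes with several transcripts, of which 18.5% and 25.3% passed on days 5 and 7. For transcripts of genes with 1 transcript this was 4.42% and 7%, and 0 of the 3 among the 9 genes (those of TET1, TET3 and TDG) passed.

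Day 7 stood apart from day 5 for several of the genes. This comparison runs across tables that may have been normalized separately, so it is a description of levels. TET1 had log2 ratios of day 7 over day 5 of 1.16 in shEXOSC3 with doxycycline, 0.88 without, 1.23 in shNS with doxycycline and 0.79 without. TET2 had 0.86, 0.52, 0.71 and 0.51 in the same order, and TET3 0.95, 0.87, 1.25 and 0.63. All 3 TET genes were thus at 0.5 or more in all 4 pairs, beside 13.2% of all genes, with 0.5 chosen after the values were seen. TDG, with 0.55, 0.75, 0.40 and 0.36, was above 0 in all 4 pairs but not past 0.5 in all. Together with the TET genes this made 4 of 8 above 0 throughout, beside 33.6% of all genes. DNMT3A, DNMT3B and UHRF1 were below 0 in all 4 pairs, beside 44.2% of all genes. DNMT3B had -0.48, -0.55, -0.47 and -0.40, DNMT3A -0.64, -0.44, -0.22 and -0.43, and UHRF1 -1.29, -0.14, -0.77 and -0.55. DNMT1 had -0.03, 0.27, 0.34 and 0.25.

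Transcript length moved with the day. The median ratio of all genes was -0.07, -0.08, -0.09 and -0.09. Among 745 genes with a main transcript of 8000 bases or more it was 0.29, 0.31, 0.33 and 0.18, and among those under 2000 bases -0.21, -0.24, -0.31 and -0.22. The TET transcripts are long, at 9288, 9679 and 11388 bases for TET1, TET2 and TET3. Their ratios lay above the median of their length class in all 4 pairs. TDG, at 3251 bases, lay above a class median of -0.14, -0.15, -0.16 and -0.14. DNMT3A and DNMT3B lay below their class medians in all 4 pairs, and DNMT1 and UHRF1 lay above in some pairs and below in others. The share of all genes on 1 side of their class median in all 4 pairs was not counted. The 3 most abundant transcripts held 6.21% to 7.16% of a library's FPKM on day 7 and 23.8% to 27.6% on day 5. A list of 3 fibroblast genes summed to 156 to 213 FPKM on day 7 and 79.5 to 116 FPKM on day 5, most of it THY1, which embryonic stem cells also express. COL1A1 of that list was higher on day 7 in all 4 pairs, with at least 13.6 FPKM on day 7 and at most 9.11 FPKM on day 5, and COL3A1 was at no more than 0.0543 FPKM. GATA3 had 0.287 to 0.980 FPKM on day 7 and 0 to 0.0150 FPKM on day 5. The part of length, library composition and these markers in the day ratios was not tested.

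**Figure D5:**
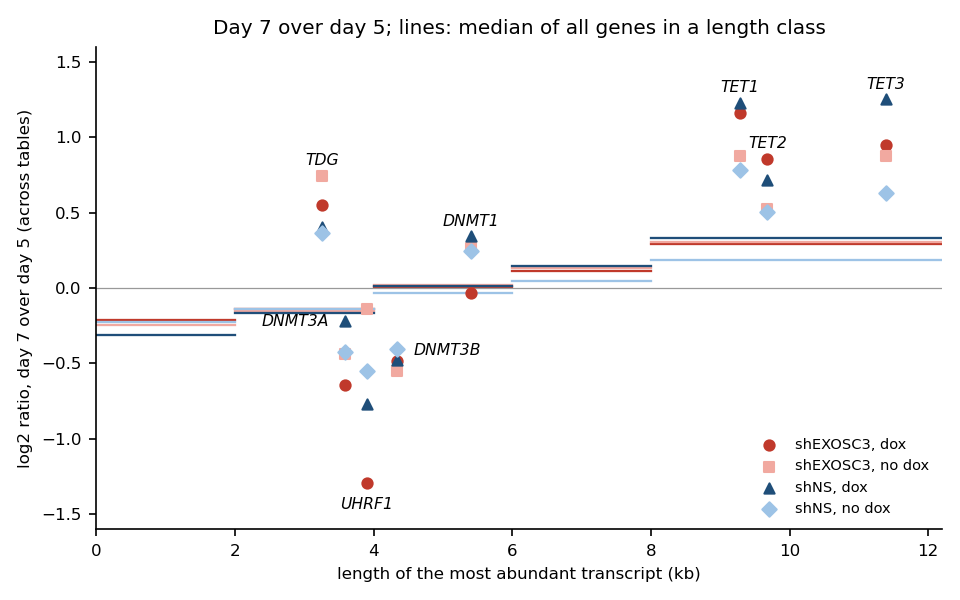
Log2 ratio of day 7 over day 5 of the 8 genes against the length of their most abundant transcript in kilobases, 1 point per line and treatment, with lines at the median of all genes in a length class. TET1, TET2 and TET3 lie above the lines in all 4 pairs, and DNMT3A, DNMT3B and UHRF1 lie below 0.

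The partners of these enzymes were examined as a list of 43 genes, of which 41 had a mean of at least 1 FPKM. By adjusted difference 0 of the 41 passed 2-fold on either day, 11 stayed above 0 and 11 below 0 on the 2 days, and 19 changed side. Their medians were 0.01 and -0.01. By the transcript of highest mean alone, 3 passed on day 5, HELLS and NEIL2 among them, and 4 on day 7, beside 6.85% and 11.2% of all genes. NEIL2 was the 1 that passed on both days, as did 1.1% of all genes. With a pseudocount of 0.1, MAT2A passed on day 5 and MBD2 and DPPA3 on day 7, beside 4.11% and 6.35% of all genes. By the doxycycline ratio within a line, 2 of the 41 passed 2-fold in shEXOSC3 on day 7 (2.92% of all genes) and 0 in the other 3 pairs. These were DPPA3 and CXXC4, a TET-related CXXC gene, which had 5.08 FPKM with doxycycline and 1.96 FPKM without in shEXOSC3, and 2.75 and 1.82 FPKM in shNS. On day 5 CXXC4 had 3.43 FPKM with and 2.74 FPKM without in shEXOSC3, and 3.08 and 1.74 FPKM in shNS. Its adjusted differences thus had opposite signs, -0.33 on day 5 and 0.63 on day 7. CXXC4 was named after its values were seen. A ratio below 0 in all 4 pairs was found for 9 of the 41, and above 0 for 6, where all genes had 12.4% and 12.8%. Among maintenance cofactors, HELLS, a chromatin remodeller needed for DNA methylation, had the lowest values, -0.30 on day 5 and -0.27 on day 7. It had 88.8 FPKM with doxycycline and 130 FPKM without in shEXOSC3, and 105 and 124 FPKM in shNS, on day 5. On day 7 it had 235 FPKM with and 286 FPKM without in shEXOSC3, and 240 and 243 FPKM in shNS. HELLS was thus lower with doxycycline in all 4 pairs, least so in shNS on day 7. USP7, a deubiquitinase that binds DNMT1 and UHRF1, was at the upper end of that class with 0.15 and 0.01.

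The methyl-CpG reader MBD2 had adjusted differences of 0.08 on day 5 and 0.97 on day 7. On day 7 it had 24.6 FPKM with doxycycline and 12.5 FPKM without in shEXOSC3, and 12.3 and 12.7 FPKM in shNS, so 1 library stood apart. Among TET partners, OGT, a glycosyltransferase that binds TET proteins, had 0.24 and 0.21, and CXXC5 -0.06 and -0.01. Among repair genes, the glycosylase NEIL2 had 0.45 and 0.18, and UNG, which removes uracil from DNA, -0.11 and -0.54. UNG had 68.4 FPKM with doxycycline and 103 FPKM without in shEXOSC3, and 105 and 108 FPKM in shNS, on day 7.

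MAT2A, which makes the methyl donor S-adenosylmethionine, had 0.98 on day 5 and 0.23 on day 7. Its day 5 levels were 41.7 FPKM with doxycycline and 26.8 FPKM without in shEXOSC3, and 32.3 and 41.7 FPKM in shNS. The lines thus differed in opposite directions. IDH2, a mitochondrial enzyme that makes 2-oxoglutarate, had -0.29 and -0.40. In the silencing class, the histone methyltransferase EHMT1 had 0.13 and 0.23, and DPPA3, which keeps UHRF1 away from chromatin in mouse oocytes, -0.12 and -0.81. DPPA3 was lower with doxycycline in all 4 pairs, at 0.344 FPKM with and 1.52 FPKM without in shEXOSC3 and 1.07 and 2.57 FPKM in shNS on day 5. On day 7 it had 0.0629 FPKM with doxycycline and 1.56 FPKM without in shEXOSC3, and 0.677 and 1.31 FPKM in shNS. TRDMT1, a tRNA methyltransferase of the DNMT family, had 0.06 and 0.05.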

How the data were processed

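Total RNA was depleted of ribosomal RNA and made into ScriptSeq libraries, per the labels' protocols. CASAVA 1.8, TopHat and Cufflinks were used with hg19 (GRCh37), per the submitters' processing notes. Other versions, the use of strand and how FPKM were normalized are not given here. Per the file headers, each of the 4 deposited tables gives FPKM per RefSeq transcript for a doxycycline library and the untreated one of the same line and day. The deposited p-value and q-value of each transcript are the authors'.

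Accessions were matched to symbols through a RefSeq table of a later assembly, and 48147 of 49235 transcripts (97.8%) had one. The overlapping genes named in the text include entries of later RefSeq annotation, so an overlap may not hold at the hg19 coordinates given. FPKM were summed per gene. The 55 genes with a failed or too deep transcript estimate, and genes with a mean below 1 FPKM, were left out. Ratios were log2((FPKM + 1)/(FPKM + 1)), which shrinks differences of low genes, and were formed within a table except where stated. With 1 library per group, genes were called by size, at a log2 value of 1 or more in either direction. The ratios were tested with limma 3.58.1 in R 4.3.3 (trend, 2 residual degrees of freedom, Benjamini-Hochberg adjustment at 0.05). A run on simulated data with normal errors checked its estimates and false calls, and set no requirement on power. FPKM carry no counts, so no counting interval could be given. Exons and lengths came from GENCODE v29 through its RefSeq accessions (12622 of 13116 genes, 96.2%).

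The genes, partner and marker lists, naming rule and tests were chosen with earlier results of these data known. Named were all 9 genes with their transcripts, EXOSC3, the highest and the lowest partner of each class by the mean of both days, and the 3 genes nearest to the most variable one; a single partner gene is left out of the text. Alternatives changed the pseudocount, the minimum, the summing, the table boundary and the day block.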

Additional observations from a re-analysis of the deposited data

How the results depend on the processing

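By adjusted difference, the count of 0 among the 8 genes held under pseudocounts of 0.1 and 5, without a minimum FPKM, with the transcript of highest mean for a gene, with all statuses kept, with median-centred ratios, and with doxycycline libraries compared across tables. The last was also run after median centring, an alternative chosen after seeing the data. Within pairs, the count of 0 held under the same settings other than the comparison across tables, which has no pairs. The 16 adjusted differences kept their sign in each setting with the minimum, except that DNMT1 on day 7 was 0.61 by its transcript of highest mean. Their sizes moved more. A move by over 1.5 times was seen for 6 of 16 values with a pseudocount of 5, among them UHRF1 at 0.15 and -0.31 on days 5 and 7 and TET3 at 0.15 and -0.16. With a pseudocount of 0.1 it was 1 of 16 (TET2 on day 5, 0.15), and with the transcript of highest mean 3, including DNMT3B at -0.15 and TET2 at 0.36 on day 7. Across tables it was 5, TDG at -0.22 and -0.07 on days 5 and 7, UHRF1 at 0.05 on day 5, and TET1 at 0.21 and TET3 at -0.10 on day 7. Partner genes past 2-fold were 1 (MAT2A) on day 5 and 2 (MBD2 and DPPA3) on day 7 with a pseudocount of 0.1, beside 4.11% and 6.35% of all genes. With the transcript of highest mean they were 3 (HELLS, MBD1 and NEIL2) on day 5 and 4 (CDCA7, APEX1, NEIL2 and EHMT2) on day 7, beside 6.85% and 11.2%, and 1 (NEIL2) on both days, beside 1.1%. The cause was not tested. limma, run with both pseudocounts, the transcript of highest mean, no minimum FPKM and the day as a block, called 0 genes in each. Without a minimum FPKM the unadjusted p of DNMT3B was 0.0408 and the adjusted p 0.735. In that setting the unadjusted p of limma was below 0.05 for 1688 of 25503 genes. Labels give no replicate numbers, so libraries could not be paired by them; with the day as a replicate block, the adjusted p of DNMT3B was 0.724. Leaving out a replicate was not possible with 1 library per group.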
